A study of Mus musculus with 3 samples.

Results

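The genes described here encode a neuropeptide precursor and the receptors through which neural signals reach lymphocytes: Calca, Calcrl, Ramp1, Ramp3, Nmur1, Vipr1, Vipr2 and Adrb1. They were taken by symbol and are 8 of the 32285 genes of the matrices, each with 1 row. The data are 3 droplet libraries of single lymphocytes from lungs of GFI1B-GFP reporter mice, for which the sources used here give neither age nor sex. Every library started from live cells, negative for a lineage panel and positive for CD45, CD90.2 and IL-7R, sorted after perfusion of the lung with PBS, digestion and a Percoll gradient. The groups differ in the further sort and hold 1 library each. The first, the IL-18R+ pool, combines IL-18R+ CD103+ GFP- cells and cells sorted as IL-18R+ CD103- GFP+, with no record of which barcode came from which sort, so GFP+ cells cannot be read apart. The second library carries the label IL-18R- CD103- GFP- and is called below the library labelled triple-negative. The third is IL-18R- ST2+, where ST2 is the IL-33 receptor encoded by Il1rl1. The reporter is carried in all groups, the labels name no treatment, and how many mice went into a library is not stated.

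Calca encodes by alternative splicing the hormone calcitonin and the sensory neuropeptide CGRP. CGRP acts through a receptor of at least 2 proteins: the G protein-coupled receptor encoded by Calcrl and a small membrane partner. Ramp1 gives the CGRP receptor, while Ramp2 and Ramp3 turn the same Calcrl protein into adrenomedullin receptors. Nmur1 is the receptor of neuromedin U, a peptide of enteric and sensory neurons that activates group 2 innate lymphoid cells (ILC2), the tissue lymphocytes that make interleukin 5 and interleukin 13. Vipr1 and Vipr2 encode the VPAC receptors of vasoactive intestinal peptide (VIP) and PACAP. Adrb1 encodes the beta 1 adrenergic receptor for noradrenaline and adrenaline. CGRP, VIP and beta adrenergic receptors raise cyclic AMP, whereas the neuromedin U receptor works mainly through calcium.

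The 3 genes whose levels separated the sorted cells most clearly below were Calca, Vipr2 and Adrb1, and the 250 bases before their start sites are shown for that reason. All 8 genes matched the RefSeq promoter table (GRCm38.p6), with 9 windows since Nmur1 has 2. The letters searched, on both strands, were the cyclic AMP response element TGACGTCA, its short core (TGACG, or CGTCA on the other strand, which also lies inside the full element), the GATA letters (AGATAA with its reverse complement TTATCT, and TGATAA with its reverse complement TTATCA) and the ROR letters (AGGTCA with its reverse complement TGACCT). Capitals mark the matches.
Calca, chr7:114636358-114636607, minus strand: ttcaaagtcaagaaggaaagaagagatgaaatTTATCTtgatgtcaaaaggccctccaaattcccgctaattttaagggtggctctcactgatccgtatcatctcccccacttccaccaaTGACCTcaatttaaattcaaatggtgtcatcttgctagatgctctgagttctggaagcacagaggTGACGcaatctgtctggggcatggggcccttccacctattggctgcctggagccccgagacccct
Vipr2, chr12:116077476-116077725, plus strand: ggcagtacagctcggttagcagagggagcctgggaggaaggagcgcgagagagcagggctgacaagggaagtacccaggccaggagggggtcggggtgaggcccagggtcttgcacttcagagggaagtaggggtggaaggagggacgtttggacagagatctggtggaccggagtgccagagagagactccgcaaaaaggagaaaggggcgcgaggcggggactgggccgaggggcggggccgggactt
Adrb1, chr19:56721867-56722116, plus strand: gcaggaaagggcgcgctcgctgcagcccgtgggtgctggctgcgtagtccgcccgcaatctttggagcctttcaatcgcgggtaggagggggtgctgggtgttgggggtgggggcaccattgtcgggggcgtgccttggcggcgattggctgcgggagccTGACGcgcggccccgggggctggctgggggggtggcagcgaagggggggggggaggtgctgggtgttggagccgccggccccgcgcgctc

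The Calca window held 1 GATA match that begins 218 bases before the start, 1 ROR match at 130 bases and 1 short core at 65 bases. Adrb1 held a short core that begins 90 bases before its start, and the Vipr2 window matched none of the letters. Among the other windows, Vipr1 held a short core and the second Nmur1 window a GATA match, so 3 of the 8 genes had a short core, 2 a GATA match and 1 a ROR match. No window of the 8 genes held the full element. Among 32851 promoter windows of this length, 1.55% held the full element, 17.8% a short core, 16.6% GATA letters and 14.02% ROR letters. Such matches are descriptions of the letters, not binding sites. GC content was 48% in the Calca window, 65.2% in that of Vipr2 and 74% in that of Adrb1, against a median of 52.4% over all windows.

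By the GENCODE M21 annotation (GRCm38), Calca lies on chromosome 7 at 114631478 to 114636357, minus strand, with 7 transcripts of which 6 are coding. These coding transcripts end at several places, among them 114631478 and 114633293, and the files count all of them as 1 gene, so transcripts for CGRP and for calcitonin cannot be told apart here. Calcrl lies on chromosome 2 at 84330626 to 84425411 (minus strand), Ramp1 on chromosome 1 at 91179822 to 91225196 and Ramp3 on chromosome 11 at 6658521 to 6677475 (both plus strand). Nmur1 is on chromosome 1 at 86386303 to 86426228 (minus strand) and Vipr1 on chromosome 9 at 121642716 to 121672954 (plus strand). Vipr2 is on chromosome 12 at 116077726 to 116146261 and Adrb1 on chromosome 19 at 56722199 to 56733113, both plus strand. The coding sequence of Adrb1 comes from a transcript with 1 exon.

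Between 1611 and 1872 cells per library passed the filters, 5138 of 5351 barcodes, with median depths of 4568 to 4930 unique molecular identifiers (UMIs). The libraries shared 1 barcode at most per pair. Levels are UMIs per 1000000 UMIs of the library or cell class (UPM), and every interval is a 95% interval of counting error only. With 1 library per group nothing has a replicate check, so a fixed rule of size was used in place of a test: a gene was measured at 20 UPM or more on either side, and called at a ratio of at least 2. The sort genes matched the labels for ST2 (Il1rl1 867.8 UPM in the IL-18R- ST2+ library, 4.91 and 5.52 UPM in the others) but not for IL-18R: Il18r1 reached 591.8 UPM in the library labelled triple-negative, against 663.3 UPM in the pool and 15.7 UPM in the IL-18R- ST2+ library. No UMI of Gfi1b was counted in any library. Cells were sorted into classes by marker genes, none of them among the 8. Gamma delta T cells dominated the pool (880 cells) and the library labelled triple-negative (1468 cells), and ILC2 the IL-18R- ST2+ library (1243 cells). Cells gated as endothelium, which the CD45 sort should lack, were also found (55, 15 and 9 cells in the same order).

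Across whole libraries, Calca, Vipr2 and Nmur1 were highest in the IL-18R- ST2+ library, Adrb1, Ramp1 and Ramp3 were lowest there, and Vipr1 was highest in the library labelled triple-negative. Calca reached 109.2 UPM in the pool (102.5 to 116.3), 76.3 UPM in the library labelled triple-negative (70.8 to 82.0) and 529.8 UPM in the IL-18R- ST2+ library (513.8 to 546.1). Vipr2 was at 2.23 UPM, 3.23 UPM and 86.0 UPM in the same order, and Nmur1 at 0.223 UPM, 0.208 UPM and 7.48 UPM. Adrb1 went the other way with 48.8 UPM, 45.0 UPM and 1.90 UPM. For these genes the intervals of the IL-18R- ST2+ library did not overlap those of the others, and the same held for Ramp1 and Ramp3. Such intervals are narrow at high counts. The share of all genes without overlap is not given here, so this is not particular to these genes.

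Ramp1 was at 690.4 UPM in the pool, 581.0 UPM in the library labelled triple-negative and 405.6 UPM in the IL-18R- ST2+ library, and Ramp3 at 399.4, 214.2 and 174.0 UPM. Both genes were therefore found at high levels in every library. Calcrl gave 60.0 UPM, 19.7 UPM and 56.1 UPM, low only in the library labelled triple-negative. Few molecules of Vipr1 were counted, 7, 49 and 4 UMIs in the same order.

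**Figure D1:**
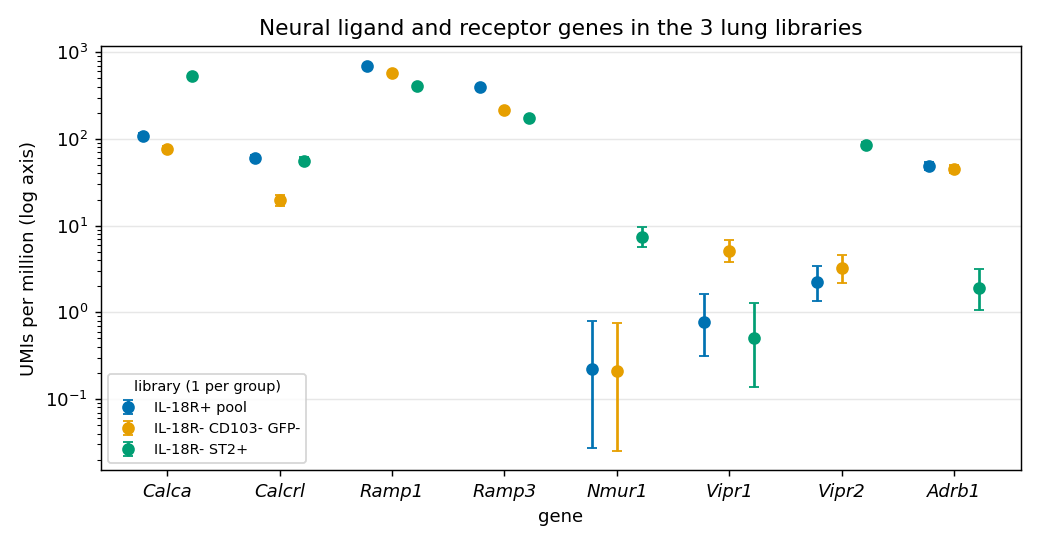
Level of each of the 8 genes (UPM, log axis) in the 3 libraries, 1 per group, with bars for the exact 95% Poisson interval of counting error. Calca and Vipr2 sit highest in the IL-18R- ST2+ library (529.8 and 86.0 UPM), where Adrb1 sits lowest (1.90 UPM).

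By the size rule, 1 of the 5 measured genes differed between the pool and the library labelled triple-negative, where the background was 3.34% of measured genes (2.55% higher in the pool and 0.791% lower). That gene was Calcrl, 3.05-fold higher in the pool (2.58 to 3.61). Ramp3 was 1.87-fold (1.77 to 1.97) and Calca 1.43-fold (1.30 to 1.58) higher in the pool, below the rule, and Adrb1 differed by 1.09-fold (0.948 to 1.24). The call of Calcrl was lost when cells gated as endothelium, stroma, epithelium, myeloid or B cells were left out, with a log2 ratio of 0.13. The 5 endothelial marker genes summed to 197.2 UPM in the pool, 71.9 UPM in the library labelled triple-negative and 40.7 UPM in the IL-18R- ST2+ library. Between the pool and the IL-18R- ST2+ library, 4 of 6 measured genes were called against a background of 16.7% (12.3% higher in the pool and 4.33% higher in the IL-18R- ST2+ library). Adrb1 was 25.7-fold (15.4 to 46.3) and Ramp3 2.30-fold (2.16 to 2.45) higher in the pool. Calca was 4.85-fold (4.52 to 5.20) and Vipr2 38.6-fold (24.8 to 63.6) higher in the IL-18R- ST2+ library. The call of Ramp3 was lost under TMM scaling (log2 ratio 0.92) and median of ratios scaling (0.88). Leaving out the same outside cells made Calcrl higher in the IL-18R- ST2+ library than in the pool, with a log2 ratio of -2.20. It moved the log2 ratio of Adrb1 from 4.68 to 5.95 and that of Vipr2 from -5.27 to -5.92.

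Between the library labelled triple-negative and the IL-18R- ST2+ library, 4 of 6 measured genes were called, with a background of 15.0% (9.57% higher in the first and 5.40% higher in the second). Calca was 6.95-fold (6.42 to 7.53), Vipr2 26.6-fold (18.6 to 39.5) and Calcrl 2.85-fold (2.40 to 3.40) higher in the IL-18R- ST2+ library, and Adrb1 was 23.7-fold (14.2 to 42.7) higher in the other. Without the outside cells the log2 ratio of the library labelled triple-negative over the IL-18R- ST2+ library moved from -1.51 to -2.34 for Calcrl and from 4.57 to 5.82 for Adrb1. Nmur1 stayed under 20 UPM in all libraries and was not measured by the rule. Its ratio was 33.5 (8.88 to 283.3) against the pool and 35.9 (9.50 to 303.2) against the library labelled triple-negative. Vipr1, likewise unmeasured, was 6.54-fold (2.95 to 17.1) higher in the library labelled triple-negative than in the pool. The pairs share libraries and are not independent of each other. The median log2 ratio of all measured genes was 0.30 for the pool over the IL-18R- ST2+ library and 0.19 for the library labelled triple-negative over it, and the ratios above contain that shift.

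Calca, the ligand, was mainly a transcript of ILC2, and those of the IL-18R- ST2+ library held 3407 of the 5893 Calca UMIs of all libraries. It reached 562.1 UPM there (543.4 to 581.3), with a UMI in 606 of 1243 cells (48.8%, or 37.3% after each cell was thinned to 2000 UMIs). The gamma delta T cells of the pool gave 89.1 UPM (80.3 to 98.5) with a UMI in 14.8% of cells, and those of the library labelled triple-negative 82.1 UPM (75.7 to 88.9) and 15.6%, or 9.92% and 9.63% after thinning. The ILC2 level was 6.31-fold (5.68 to 7.04) and 6.85-fold (6.28 to 7.48) that of these gamma delta T cells. Alpha beta T cells were lower still, with 45.4 and 46.5 UPM in the same libraries. Cells gated as progenitors carry Il18r1 and Tcf7 and passed none of the earlier gates, which does not exclude single lineage markers. In the pool 84 of these 125 cells had a UMI of Gata3. Their Calca level was 155.7 UPM in the pool (132.5 to 181.9) and 127.0 UPM in the library labelled triple-negative (89.5 to 175.1), intervals that overlap. In the ILC1 and NK cells of the pool the level was 38.0 UPM.

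Median depth was 4603 UMIs in these ILC2, and 4702 and 4720 UMIs in the gamma delta T cells. No Calca UMI was counted in 55 endothelial cells of the pool (median depth 3087 UMIs), which by a limit of 3 cells of the total allows a share of up to 5.45%, nor in 47 myeloid cells (median depth 5219), which allows 6.38%. The 35 ILC3 of the library labelled triple-negative also held none, allowing 8.57%. Ungated cells reached 384.5 UPM in the pool and 607.2 UPM in the IL-18R- ST2+ library. CD3 gates of the latter also held cells of ILC2 type: Il1rl1 was counted in 54 of 67 gated gamma delta T cells and 162 of 173 other CD3+ cells, and Calca reached 345.1 and 463.8 UPM there. For this reason gamma delta T values below come from the other libraries.

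Calca was unevenly spread over cells. In the ILC2, 637 of 1243 cells had no UMI of it and 99 cells (7.97%) had 10 or more, which held 45.4% of all Calca UMIs of the class. Among gamma delta T cells, 5 of 880 cells of the pool and 2 of 1468 cells of the library labelled triple-negative had 10 or more, holding 13.9% and 4.29% of the UMIs. The progenitors of the pool had 7 of 125 cells at 10 or more, which held 55.97% of their Calca UMIs.

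**Figure D2:**
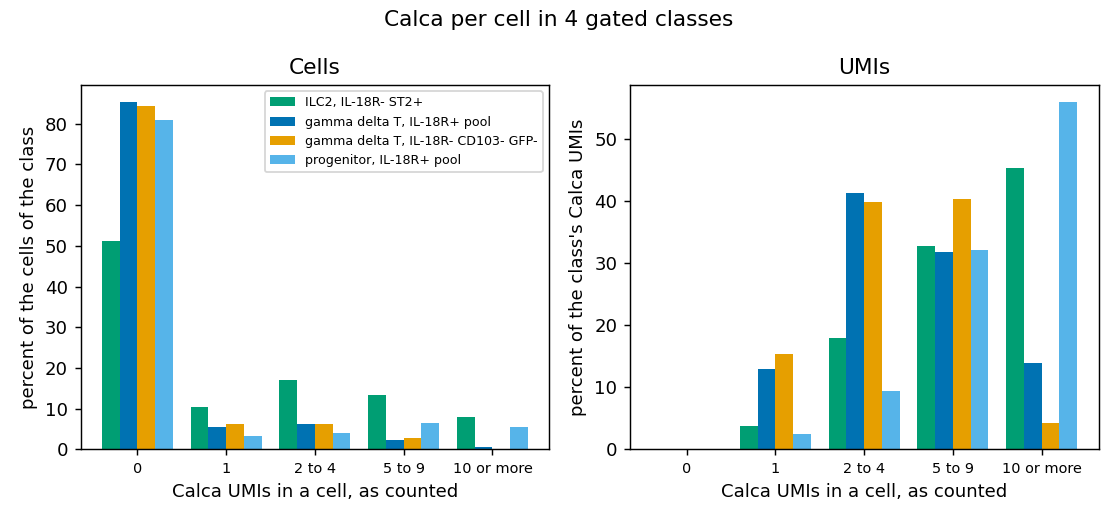
Share of cells (left, percent of the class) and share of Calca UMIs (right, percent of the class total) by the number of Calca UMIs in a cell, for 4 gated classes. Cells with 10 or more UMIs make up 7.97% of the ILC2 and hold 45.4% of their Calca UMIs, against 4.29% of the UMIs in the gamma delta T cells labelled triple-negative.

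The few ILC2 outside the IL-18R- ST2+ library did not give stable values. The 13 of the pool held 102 Calca UMIs in 5 cells, 1238 UPM, and the 12 of the library labelled triple-negative held 6 UMIs in 2 cells, 90.3 UPM. A single cell held 62 of the 980 Calca UMIs of the pool.

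Calcrl, the receptor that CGRP and adrenomedullin share, was carried by endothelial cells and, at a far lower level, by ILC2. The 55 endothelial cells of the pool reached 2132 UPM (1940 to 2339) and held 450 of its 538 Calcrl UMIs (83.6%). In the library labelled triple-negative, endothelial cells held 100 of 189 UMIs (52.9%). In the IL-18R- ST2+ library they held 74 of 443 (16.7%), and the ILC2 286 (64.6%). The ILC2 level was 47.2 UPM (41.9 to 53.0), with a UMI in 224 of 1243 cells (18.0%, thinned 8.67%). Gamma delta T cells gave 7.27 UPM in the pool (4.94 to 10.3) and 7.86 UPM in the library labelled triple-negative (5.97 to 10.2), with a UMI in 3.30% and 3.54% of cells. The ILC2 level was 6.50-fold (4.48 to 9.74) and 6.004-fold (4.51 to 8.11) theirs. Among classes of at least 30 cells the lowest level was that of the alpha beta T cells of the pool, 4.33 UPM, where 2.08% of cells had a UMI at a median depth of 5498 UMIs.

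Apart from Pecam1, the endothelial markers were nearly absent from the ILC2 with a Calcrl UMI. Cells with at least 2 of the 5 markers and at least 4 UMIs of them were gated as endothelium first. Low marker values in the ILC2 are therefore partly set by the gate. Of those 224 cells, 1 had a UMI of Cdh5, which encodes VE-cadherin, and none had a UMI of Cldn5, Kdr or Emcn, while Pecam1 was found in 10.3% of them and 7.36% of the other ILC2. Summed over all 5 endothelial markers the level was 18.3 UPM in the ILC2, with 2 of the 5 genes at 0, against 6965 UPM in the endothelial cells of the pool. Among smaller classes, the ILC1 and NK cells of the pool gave 25.4 UPM (10.9 to 49.98) with 8 UMIs in 8 cells, and the progenitors of the pool 19.6 UPM (12.0 to 30.3).

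Ramp1, the partner that makes a CGRP receptor, was found in every T cell, ILC and progenitor class of at least 30 cells. Among classes of that size it was highest in the 35 ILC3 of the library labelled triple-negative, 1092 UPM (948.4 to 1251), and in the gamma delta T cells of the pool, 866.2 UPM (838.5 to 894.6), where 95.1% of cells had a UMI. The gamma delta T cells of the library labelled triple-negative had 593.3 UPM (575.8 to 611.1) and 77.6% of cells. The ILC2 gave 408.9 UPM (392.9 to 425.3) with a UMI in 82.9% of cells, and endothelial cells 127.9 UPM with 10.9%. Relative to the ILC2, gamma delta T cells were 2.12-fold higher in the pool (2.01 to 2.23) and 1.45-fold higher in the library labelled triple-negative (1.38 to 1.53). The first passed the size rule, but not under TMM scaling of these classes (log2 ratio of ILC2 over gamma delta T -0.86) or median of ratios scaling (-0.84). Alpha beta T cells differed between libraries, 743.2 UPM in the pool and 243.5 UPM in the library labelled triple-negative.

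Ramp3, the adrenomedullin receptor partner, was highest in the alpha beta T cells of the pool at 805.2 UPM (758.7 to 853.8), with a UMI in 83.8% of cells. In the library labelled triple-negative these cells had 202.5 UPM (171.2 to 237.9) and 41.2%. Gamma delta T cells gave 425.1 UPM in the pool (405.8 to 445.2) and 224.1 UPM in the library labelled triple-negative (213.5 to 235.2), and the ILC2 185.8 UPM (175.1 to 197.0) with 38.0% of cells. ILC1 and NK cells, with 9.51 UPM and 3 UMIs, and myeloid cells, with 3.44 UPM and 1 UMI, were near the lower end. The share of cells with a UMI there was 7.69% and 2.13%. Alpha beta T cells of the pool thus differed from those of the library labelled triple-negative in both partners: 3.98-fold (3.35 to 4.75) for Ramp3 and 3.05-fold (2.60 to 3.60) for Ramp1, so 2 of 3 measured genes were called against a background of 13.5%. In gamma delta T cells of the same libraries 0 of 4 measured genes were called (background 1.65%), with ratios of 1.90 for Ramp3, 1.57 for Adrb1, 1.46 for Ramp1 and 1.08 for Calca. Whether the change differs between the T cell classes was not tested.

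Ramp2, the remaining partner of Calcrl and not one of the 8 genes, was an endothelial transcript. It reached 2549 UPM in the endothelial cells of the pool, with 538 UMIs. No Ramp2 UMI was counted in the ILC2, and the gamma delta T cells of the pool held none, those of the library labelled triple-negative 1.

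**Figure D3:**
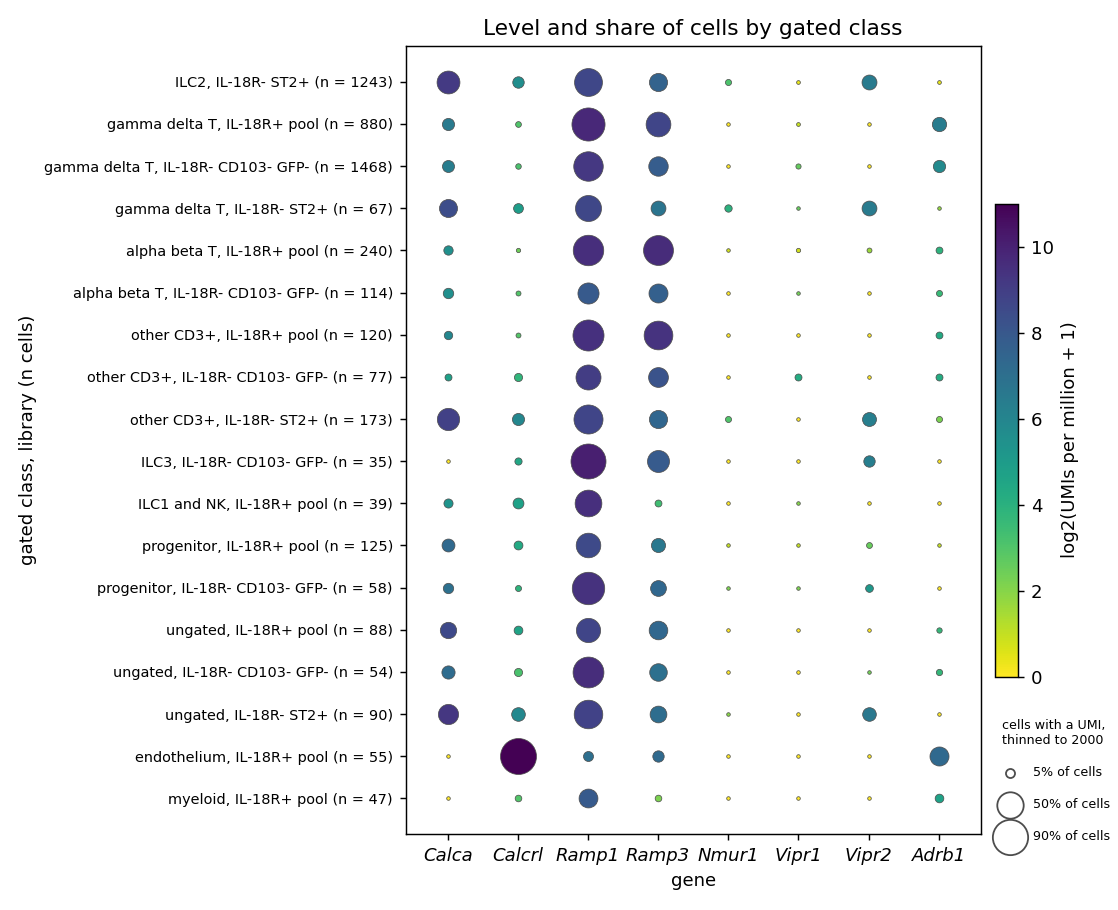
Gated cell classes of each library with at least 30 cells (rows) against the 8 genes (columns): colour is log2(UPM + 1), and the area of a dot is the percent of cells with a UMI after thinning to 2000 UMIs. Calca and Vipr2 are darkest in the IL-18R- ST2+ rows, Adrb1 in the gamma delta T and endothelial rows, and Calcrl in endothelium (2132 UPM).

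Calcrl and its partner form the receptor within a cell, so the parts were read cell by cell. In the ILC2, thinned to 2000 UMIs, 67 of 1234 cells (5.43%, 4.23 to 6.84) had Calcrl with Ramp1 or Ramp3, 764 (61.9%) had a partner without Calcrl, and 40 (3.24%) had Calcrl alone. As counted, the shares were 16.3%, 73.2% and 1.77%. Without Calcrl here means that no UMI of it was counted. A cell with few Calcrl molecules can show none at these depths, so such cells need not lack the transcript. Calcrl with Ramp1, the pair of the CGRP receptor, was found in 53 thinned ILC2 (4.3%), or 15.5% as counted. In gamma delta T cells Calcrl with Ramp1 or Ramp3 was found in 1.48% of thinned cells of the pool (0.792 to 2.52) and 1.03% of the library labelled triple-negative (0.578 to 1.70), or 3.18% and 2.72% as counted. With Ramp1 the thinned shares were 1.37% and 1.03%. A partner without Calcrl was found in 86.5% and 68.4% of those thinned cells. Endothelial cells showed the reverse: 83.0% had Calcrl with neither Ramp1 nor Ramp3, and of the 44 with Calcrl, 41 had Ramp2. The ligand with Calcrl and either Ramp1 or Ramp3 in 1 cell, not counted for Ramp1 alone, was seen in 1.94% of thinned ILC2 and 8.37% as counted. It was seen in 0 of 877 thinned gamma delta T cells of the pool and 4 of 1454 of the library labelled triple-negative.

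**Figure D4:**
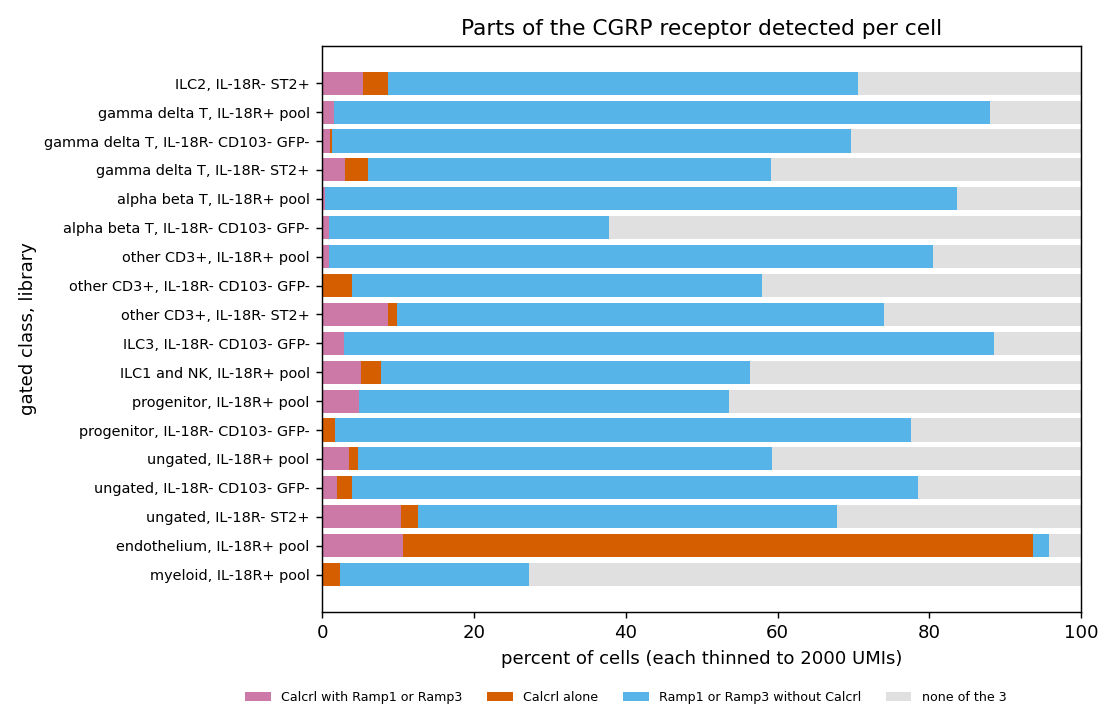
Percent of the cells of each gated class, thinned to 2000 UMIs per cell, with Calcrl and Ramp1 or Ramp3, with Calcrl alone, with Ramp1 or Ramp3 alone, or with none of these. A gene is taken as absent where no UMI was counted, which a low level can also give. Ramp1 or Ramp3 without Calcrl fills most of each T cell and ILC bar except that of alpha beta T cells labelled triple-negative (36.8%) and of ILC1 and NK cells (48.7%) and progenitors (48.8%) of the pool, while Calcrl alone fills 83.0% of the endothelial bar.

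Within the ILC2, cells with and without a Calca UMI were compared after thinning. Ramp3 was found in 28.9% of 460 cells with Calca and 19.5% of 774 cells without, a difference of 9.40 percentage points (4.34 to 14.6). Ramp1 went slightly the other way, 52.0% against 58.0%, a difference of -6.05 points (-11.9 to -0.194). Calcrl was found in 7.83% and 9.17%, and Vipr2 in 13.5% and 16.4%, with intervals of the difference that include 0. As counted, the readings of Ramp1 and Vipr2 changed places: the difference was -2.78 points for Ramp1 (-7.09 to 1.51) and -6.05 points for Vipr2 (-11.2 to -0.815). Between the parts of the receptor, Ramp1 was found in 49.5% of ILC2 with Calcrl and 56.3% of those without, and the difference of -6.81 points (-17.0 to 3.46) was 3.92 points as counted. These intervals treat the cells of 1 library as draws and carry no replicate error.

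In the gamma delta T cells of the library labelled triple-negative, Calca, Ramp1 and Adrb1 were found together. Ramp1 was present in 79.3% of 140 thinned cells with Calca and 60.8% of 1314 without, a difference of 18.5 points (10.4 to 25.4), and Adrb1 in 17.1% and 9.36%, a difference of 7.78 points (1.70 to 15.2). Of the cells with Adrb1, 83.0% had Ramp1, against 60.3% of those without. In the pool the same comparisons gave differences of -2.36 points for Ramp1 by Calca (-13.0 to 6.51) and 6.30 points for Ramp1 by Adrb1 (-1.85 to 13.0). As counted, the differences in the pool were 3.03 points (-1.52 to 5.63) and 4.54 points (1.375 to 6.90). In the library labelled triple-negative they were 17.2 and 21.4 points as counted.

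The cells that carried the ILC2 cytokines were also richer in Calca. ILC2 with a UMI of Il5 or Il13 (398 cells, median depth 5178) had 697.8 UPM of Calca against 484.8 UPM in the other 845 (median depth 4405), a ratio of 1.44 (1.34 to 1.54), and 235.8 against 157.3 UPM of Ramp3, a ratio of 1.499 (1.33 to 1.69). Ramp1 and Vipr2 did not differ beyond counting error. Their ratios, of cells without over cells with these cytokines, were 1.00 (0.922 to 1.09) and 1.19 (0.993 to 1.44). After thinning, the ratio of cells with over cells without was 1.73 for Calca and 1.76 for Ramp3. By single genes at equal depth, Il13 was found in 16.1% of ILC2 with Calca and 9.69% without, Areg, the growth factor amphiregulin, in 68.5% and 58.9%, and Icos in 51.3% and 41.9%. Intervals of these 3 shares did not overlap. Those of the other type 2 genes read did. Among these, the interval of the difference lay above 0 for Il5 (16.3% and 12.1%, 0.0458 to 8.47 points), Il4, Csf2, Rora and Il2ra. Of these, only Il5 (24.6% and 17.6%) and Rora kept this as counted. Klrg1, Arg1 and Crlf2 were lower with Calca, but with intervals of the difference that include 0. Crlf2 was slightly higher as counted (23.6% and 23.1%). A share over all genes is not given beside these. ILC2 with Ramp3 had more Il5 (20.4% against 11.7%), Areg (74.3% against 58.9%) and Csf2 (45.1% against 33.2%). For the other genes of that list the intervals by Ramp3 overlapped, though those of the difference lay above 0 for Il13 and Rora. Il1rl1 was found in 84.1% of cells with Calca and 83.6% of those without. Il5, Il13 and Il1rl1 are among the genes of the ILC2 gate, and the splits were chosen with the data in view.

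The receptor for neuromedin U was seen almost only in cells of the IL-18R- ST2+ library. Its ILC2 held 46 Nmur1 UMIs in 44 cells, 7.59 UPM (5.56 to 10.1), or 3.54% of cells. No Nmur1 UMI was counted in 880 gamma delta T cells of the pool, which by the limit of 3 cells allows a share of up to 0.341%, or in 1468 of the library labelled triple-negative, which allows 0.204%. The ILC2 level was at least 10.8-fold and at least 18.7-fold higher than theirs, against a floor of 3 UMIs per class. Of the 59 UMIs of that library, 6 came from cells in its gamma delta gate and 6 from its other CD3+ gate.

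Vipr2 followed the same cells. The ILC2 reached 88.8 UPM (81.4 to 96.6), with a UMI in 379 of 1243 cells (30.5%, thinned 15.3%). Again no UMI was counted in the gamma delta T cells of either library, so the ILC2 level was at least 126.3-fold and at least 218.3-fold higher. In the library labelled triple-negative, 15 UMIs in 7 of 35 ILC3 gave 78.7 UPM (44.1 to 129.9), an interval that includes the ILC2 level, and 10 UMIs in 6 of 58 progenitors gave 34.3 UPM (16.5 to 63.1). The progenitors of the pool had 5 UMIs and 4.90 UPM (1.59 to 11.4), so those of the library labelled triple-negative were 7.01-fold higher (2.18 to 26.1), the only call among 4 measured genes against a background of 17.9%. Vipr2 and Nmur1 were detected side by side in 4 of the 22 thinned ILC2 with Nmur1.

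Vipr1, the other VIP receptor, was found mostly among T cells of the library labelled triple-negative. Its gamma delta T cells held 38 UMIs in 34 cells, 5.15 UPM (3.64 to 7.07), and its 77 other CD3+ cells held 7 UMIs, 18.0 UPM (7.25 to 37.2). The gamma delta T cells of the pool had 4 UMIs, 0.938 UPM (0.255 to 2.40), 5.49-fold lower (1.98 to 21.2). The ILC2 had 2 UMIs, 0.330 UPM (0.0400 to 1.19), with a UMI in 0.161% of cells.

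Among the lymphocyte classes, Adrb1 was highest in gamma delta T cells. It reached 84.1 UPM (75.7 to 93.3) in those of the pool, with a UMI in 210 of 880 cells (23.9%, thinned 14.03%), and 53.5 UPM (48.4 to 59.1) in those of the library labelled triple-negative, with 265 of 1468 cells (18.1%, thinned 10.1%). The ILC2 held 2 UMIs, 0.330 UPM, with a UMI in 0.161% of cells at a similar depth. Within the pool, 0.8% of progenitors and 4.58% of alpha beta T cells had a UMI. The gamma delta level was 255-fold (70.1 to 2113) and 162.2-fold (44.6 to 1344) that of the ILC2. Alpha beta T cells were low as well, with 14.4 UPM in the pool and 10.9 UPM in the library labelled triple-negative, 5.84-fold (3.72 to 9.67) and 4.89-fold (2.46 to 11.4) below the gamma delta T cells of the same library. Gamma delta T cells labelled triple-negative without a UMI of Trdv4, a delta chain segment read below, had 4.38 UPM as counted. The progenitors held 1 UMI in the pool and none at all in the library labelled triple-negative, and no UMI was counted in the ILC3 of the library labelled triple-negative or the ILC1 and NK cells of the pool. Endothelial cells of the pool reached 156.4 UPM (107.6 to 219.6), from 33 UMIs in 20 of 55 cells.

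Counted over the 8 genes, the ILC2 differed from the gamma delta T cells of the pool in 6 of 6 measured genes (background 18.6%) and from those of the library labelled triple-negative in 4 of 6 (background 17.4%). Calca, Calcrl and Vipr2 were higher and Adrb1 lower in both comparisons, which share the ILC2. Ramp3, 2.29-fold lower than in the pool (2.12 to 2.47), lost its call under TMM scaling (log2 ratio -0.97) and median of ratios scaling (-0.95), and differed by 1.21-fold from the library labelled triple-negative. The call of Ramp1 against the pool was likewise lost under these scalings, as given above. Against the progenitors of the pool 3 of 5 measured genes were called (background 22.3%): Calca 3.61-fold (3.08 to 4.26), Calcrl 2.41-fold (1.53 to 4.004) and Vipr2 18.1-fold (7.72 to 56.1), each higher in the ILC2. TMM shifted the ILC2 against the gamma delta T cells by 0.22 and 0.16 on the log2 scale.

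Within a library, gamma delta T cells exceeded alpha beta T cells in Adrb1 alone in the pool (1 of 4 measured, background 4.95%), and in Adrb1 and Ramp1 in the library labelled triple-negative (2 of 4, background 9.69%), where Ramp1 was 2.44-fold higher (2.10 to 2.85). In the pool Calca was 1.96-fold higher in gamma delta T cells (1.499 to 2.60) and Ramp3 1.89-fold higher in alpha beta T cells (1.76 to 2.04), both under the rule. Against progenitors, gamma delta T cells of the pool differed in 3 of 4 measured genes (background 16.4%), each higher in the gamma delta T cells: Ramp1 2.38-fold (2.14 to 2.66), Ramp3 4.38-fold (3.58 to 5.42) and Adrb1 with a ratio of 85.9 (15.3 to 3402). In the library labelled triple-negative, 2 of 5 were called (background 15.9%). There Adrb1 was at least 5.20-fold higher in gamma delta T cells and Vipr2 at least 84.5-fold higher in progenitors, and Ramp1 was 1.17-fold (1.02 to 1.35) higher in progenitors.

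The gamma delta T cells of the library labelled triple-negative were themselves not of 1 kind in these genes. Trdv4 encodes a delta chain variable segment used by interleukin 17-producing gamma delta T cells, and was counted in 1111 of 1468 cells there. The others entered the gate through Trdc or Tcrg-V6. Calca was at 110.1 UPM in cells with Trdv4 and 19.7 UPM in those without, 5.59-fold (4.12 to 7.75). Ramp1 was at 792.8 against 148.0 UPM, 5.36-fold (4.79 to 6.002), Ramp3 at 280.0 against 99.4 UPM, 2.82-fold (2.45 to 3.25), and Adrb1 at 75.6 against 4.38 UPM, 17.3-fold (9.28 to 36.3). Vipr1 went the other way, 6 UMIs in the cells with Trdv4 and 32 in the cells without, a ratio of 11.9 (4.91 to 34.8). Median depth was 4448 UMIs with Trdv4 and 6266 without.

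When the split was repeated on cells thinned to 2000 UMIs, where fewer cells show Trdv4, the ratios were 2.09 for Calca (1.498 to 2.97), 2.43 for Ramp1 (2.15 to 2.75), 1.78 for Ramp3 (1.48 to 2.16) and 5.41 for Adrb1 (3.18 to 9.88). In the pool, with 742 cells with Trdv4 and 138 without, Calca differed by 1.24-fold (0.927 to 1.69), Ramp1 by 1.30-fold (1.18 to 1.43) and Adrb1 by 1.70-fold (1.21 to 2.45), each higher with Trdv4. The direction of Adrb1 there turned after thinning (log2 0.77 as counted and -0.12 thinned). Ramp3 in the pool was 1.55-fold higher without Trdv4 (1.39 to 1.73). By Il17a, found in 499 of the 1468 gamma delta T cells of the library labelled triple-negative, Ramp1 was 1.76-fold (1.66 to 1.87), Ramp3 1.74-fold (1.57 to 1.92) and Adrb1 1.48-fold (1.20 to 1.82) higher in cells with it, and 2 of 38 Vipr1 UMIs were in those cells. Thinned, the ratios were 1.61 for Ramp1, 1.56 for Ramp3 and 1.05 for Adrb1 (0.744 to 1.47). In the pool the split by Il17a gave 1.18 for Ramp1 (1.11 to 1.26), 1.03 for Ramp3 (0.940 to 1.13) and 1.29 for Adrb1 (1.04 to 1.61). The splits by Trdv4 and Il17a were added after the levels by class were seen.

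**Figure D5:**
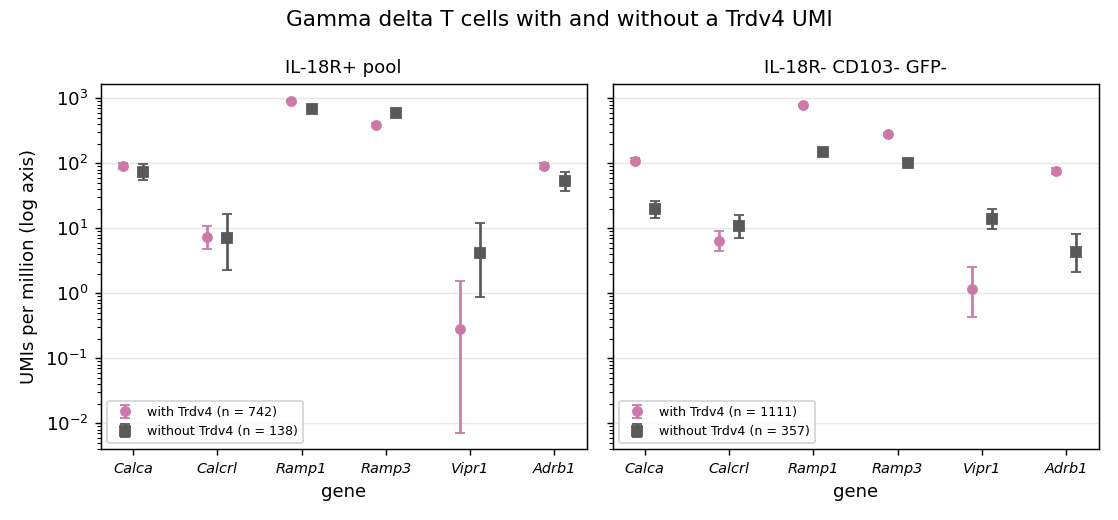
Level of 6 genes (UPM, log axis) in gamma delta T cells with and without a Trdv4 UMI, for the pool (left) and the library labelled triple-negative (right), with exact 95% Poisson intervals of counting error. In the right panel Calca, Ramp1, Ramp3 and Adrb1 are higher and Vipr1 lower with Trdv4, while in the left panel Calca and Calcrl overlap.

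The other genes of these pathways were read from 8 lists. Of the 4 neuromedin genes 3 had no UMI in any library, and of the 5 VIP and PACAP genes 3 had none, so neither Nmu, Nms, Vip nor Adcyap1 was detected at this depth. None of the 15 cholinergic genes was measured. Of the CGRP and adrenomedullin list, Ramp2 (60.9, 13.2 and 8.11 UPM in the pool, the library labelled triple-negative and the IL-18R- ST2+ library) was the called gene besides the ones described. Counts in this list were 2 of 5 measured genes higher in the pool against the library labelled triple-negative, 2 higher in the pool and 1 higher in the IL-18R- ST2+ library of 5, and 2 of 4 higher in the IL-18R- ST2+ library against the library labelled triple-negative. The shares over all measured genes were 2.55%, 12.3%, 4.33% and 5.40% in that order. Calcrl and Ramp2, the genes higher in the pool against the library labelled triple-negative, had 450 of 538 and 538 of 546 pool UMIs in endothelial cells. Gabbr1, a GABA-B receptor subunit, was the only measured gene of the other neural list, at 93.4, 71.2 and 27.6 UPM.

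Of the 9 genes of peptide processing, Pcsk1 and Cpe were measured. Pcsk1, the prohormone convertase that cuts peptide precursors, was at 31.7 UPM in the IL-18R- ST2+ library and 1.67 and 1.15 UPM in the others, 18.9-fold (11.3 to 34.4) and 27.6-fold (15.2 to 56.1). Cpe, the carboxypeptidase that trims the cut peptides, was at 23.3 UPM in the pool, 15.9 UPM in the library labelled triple-negative and 1.27 UPM in the IL-18R- ST2+ library, called only for the pool against the IL-18R- ST2+ library. Of the 29 genes that couple such receptors to G proteins and cyclic AMP, 21 were measured in each pair. None was called between the pool and the library labelled triple-negative, and in each of the other pairs the IL-18R- ST2+ library was lower for 3 and higher for 1, where 12.3% and 4.33% of all measured genes were so called against the pool, and 9.57% and 5.40% against the library labelled triple-negative. Pde4b, a cyclic AMP phosphodiesterase, was at 173.3, 176.1 and 57.0 UPM, Grk6, a receptor kinase, at 87.2, 82.9 and 39.4 UPM, and Gnaq, the calcium-coupling G protein subunit, at 37.2, 21.4 and 67.5 UPM, called only against the library labelled triple-negative. Median log2 ratios of the coupling list were 0.02, 0.26 and 0.15, beside 0.10, 0.30 and 0.19 over all measured genes.

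Finally, the pattern of each gene over the 15 classes with at least 50 cells was set beside 8591 other genes. Nmur1 and Vipr2 were most like each other among the 8, with a Pearson r of 0.937 over classes, and Vipr2 was the gene nearest to Nmur1. The genes nearest to Vipr2 were Nr4a2 (r 0.929) and Klrg1 (0.918), the latter a gate gene of ILC2. Calca was nearest to Baz1a (0.965), Calcrl to Cald1 (0.955), Ramp1 to Gpr132 (0.938), Ramp3 to Fam83a (0.864), Vipr1 to Gramd3 (0.864) and Adrb1 to Lysmd2 (0.902). Adrb1 ran against Vipr2 (-0.822) and Calca (-0.720), and Calcrl against Ramp1 (-0.785). Classes of 1 library share its depth and free RNA, so these are descriptions. Immediate-early and heat shock genes, which tissue digestion can raise, also differed between classes: their sum was 12918 UPM in the ILC2, 11287 UPM in the gamma delta T cells of the pool, 8306 UPM in those of the library labelled triple-negative, 7462 and 4319 UPM in their alpha beta T cells, and 21730 UPM in the endothelial cells. Their part in the levels above was not tested.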

How the data were processed

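Gene counts as deposited by the authors were raw UMI counts from Cell Ranger 6.0.1 (10x 3' chemistry, mm10), per the file headers and the submitters' processing notes. The members and gene lists were chosen with earlier results of these data known. Barcodes under 500 genes or over 10% mitochondrial UMIs were left out, and Scrublet removed 26 cells (0.5035%), so doublets may remain. Cells were gated by raw UMIs of marker genes: at least 2 CD3 UMIs for T cells, Il1rl1 with another type 2 gene for ILC2, and 2 or more markers for other classes. Counts were summed per library and class. Intervals are exact (Poisson for levels, Clopper-Pearson for shares, conditional binomial for ratios) and cover counting error only. A ratio against 0 UMIs used a floor of 3 UMIs. Shares at equal depth used cells thinned to 2000 UMIs, leaving out 19, 19 and 14 shallower cells. Up to 3 measured genes per pathway list with the largest ratio in a pair were named, and the nearest genes by Pearson correlation over classes, of which the text gives 1 or 2. Alternatives were other scalings, minimums, filters, gates and thinning depths. Python 3.11.15, scanpy 1.11.5, scipy 1.17.1, numpy 2.4.6 and pandas 2.3.3 were used. On simulated counts for 5452 genes of the pool and the IL-18R- ST2+ library, the size rule called 0 of 50 genes changed 1.5-fold, 48 of 50 changed 2.5-fold, and 0 of 5252 unchanged genes. The simulation held counting error only, drawn from 1 shared profile. It cannot show how often the rule calls a gene through differences between mice, cell mixtures or handling. Some genes of the pathway lists are not reported here.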

Additional observations from a re-analysis of the deposited data

Results flagged for a closer look

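As counted, Ramp1 differed in opposite directions between gamma delta T cells and progenitors in the 2 libraries that hold both. The log2 ratio of gamma delta T cells over progenitors was 1.253 in the pool. It was -0.2324 in the library labelled triple-negative. There it rested on 58 progenitors and was below the size rule, 1.17-fold (1.02 to 1.35) higher in progenitors. TMM scaling shifted that comparison by 0.17 on the log2 scale, toward the gamma delta T cells. The difference was not tested, since each group holds 1 library.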

How the results depend on the processing

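No paired analysis was possible because each group holds 1 library and the labels give no shared replicate numbers. Of 42 counts of genes past the size rule, 25 stayed within 1.5 times. For genes higher in the pool than in the library labelled triple-negative (148), leaving out cells outside the lymphocyte sort gave 58, a minimum of 3 UMIs 1997 and a minimum of 5 UPM 586. For the reverse (46), these minimums gave 380 and 106. For genes higher in the pool than in the IL-18R- ST2+ library (732), TMM gave 476, median of ratios 450, and the minimums 3148 and 1608, and for the reverse (257) 388, 412, 986 and 488. For the library labelled triple-negative over the IL-18R- ST2+ library (549) the minimums gave 1865 and 1057, and for the reverse (310) 1494 and 616. Among levels of the 8 genes between libraries, 98 of 102 values kept their call, and no called ratio changed direction. The exceptions, on the log2 scale, were Calcrl without outside cells (0.1349 for the pool over the library labelled triple-negative, -2.204 for the pool over the IL-18R- ST2+ library) and Ramp3 for the pool over the IL-18R- ST2+ library (0.9165 under TMM and 0.88 under median of ratios). Among class ratios, 304 of 315 kept their call, likewise without a called ratio changing direction. For ILC2 over gamma delta T cells of the pool, TMM and median of ratios gave -0.8587 and -0.8398 for Ramp1, and -0.9699 and -0.951 for Ramp3. For Ramp3 in ILC2 over progenitors of the pool they gave 1.327 and 1.303, and leaving out the top cell of each class 1.103. For Calca in gamma delta over alpha beta T cells of the pool, a CD3 sum of at least 1 gave 1.002 and leaving out the top cell 1.17. In the library labelled triple-negative, a stricter cell filter gave 1.171 and leaving out the top cell 1.338. For cells with 2 genes together, 28 of 30 differences stayed within the interval of the main setting, which does not fix their sign. In the ILC2, Calcrl by Calca went from -1.347 points thinned to 1.543 points as counted. Outside the interval were Ramp1 by Calcrl (3.923 points as counted) and Vipr2 by Calca (1.596 points in a second random draw). Ramp3 by Trdv4 in the library labelled triple-negative fell to 0.83 on the log2 scale when thinned. The TMM and median of ratios scaling of classes, an ILC2 gate read before CD3 and the thinned splits were chosen after seeing the data. The causes were not tested. Depth limits Nmur1 and Vipr1, with 63 and 60 UMIs over all libraries, and the small classes.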

Other observations

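Some of the 8 genes were also read within classes, in splits chosen with the data in view. Progenitors of the pool with a UMI of Gata3, the type 2 transcription factor (84 cells), held 189.5 UPM of Calca against 67.3 UPM in the 41 without it, a ratio of 2.81 (1.74 to 4.82), but 1.12 (0.567 to 2.18) when the split was repeated on cells thinned to 2000 UMIs. Ramp1 was at 297.8 UPM with Gata3 and 535.0 UPM without, 1.80-fold lower with it as counted and 1.25-fold (0.828 to 1.90) thinned. As given above, 7 of these 125 progenitors held most of their Calca UMIs. Among gamma delta T cells of the library labelled triple-negative, the 595 with a UMI of the chemokine receptor gene Cxcr3 held 111.3 UPM of Calca and the others 61.6 UPM, a ratio of 1.81 (1.53 to 2.13), or 1.46 (1.08 to 1.96) thinned. In the pool that ratio was 1.29 (0.995 to 1.66). For Ramp3 in the pool the level was 254.8 UPM in gamma delta T cells with Cxcr3 and 459.2 UPM in those without, 1.80-fold higher without it (1.54 to 2.11) and 2.04-fold (1.48 to 2.89) thinned. In the library labelled triple-negative that ratio was 1.09 (0.985 to 1.20). Alpha beta T cells of the pool with Il17a had 1039 UPM of Ramp3 and those without it 730.9 UPM, a ratio of 1.42 (1.25 to 1.61) as counted and 1.07 (0.822 to 1.38) thinned. The intervals cover counting error only.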
